A study of Schizosaccharomyces pombe with 12 samples.

Results

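The transcript levels shared by 3 histone H2B mutants were measured by setting 9 mutant RNA-seq libraries of the fission yeast Schizosaccharomyces pombe against 3 libraries of the wild type (WT). The 9 libraries are all mutant libraries of a study of 12 libraries, taken by their genotype labels and not by any measured value. They comprise 3 libraries each of the mutants H2BK5AK10AK15A (A), H2BK5QK10QK15Q (Q) and H2BK5RK10RK15R (R), in which lysines 5, 10 and 15 of H2B were replaced together by alanine, glutamine or arginine. The label of A replicate 2 reads H2BK5AK10AK16A. As written, that label does not name lysine 15. By the other labels, what the mutants have in common is that none of them keeps these lysines. The contrast of the mean of the 3 mutant groups with WT asks which transcripts stood apart in the mutants together, whatever the new residue. The study's title concerns how acetylation at these residues bears on double-strand break repair. The labels describe whole cells and give no mating type, growth medium or number of clones per strain, and nothing in them says that replicates came from separate cultures. P-values therefore measure only the spread between these samples, and other differences between the strains cannot be told apart from the substitutions.

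Total counts per library lay between 15329416 and 20050394, and a floor of 3 counts corresponded to between 0.147 and 0.193 CPM (counts scaled to library size by the TMM method), the unit of all levels given here. The WT libraries lay closer to each other than the mutant libraries did: the median over genes of the standard deviation (SD) of log2(CPM + 1) between replicates was 0.088 in WT, 0.175 in A, 0.214 in Q and 0.189 in R. On the leading principal component, which held 44.5% of the variance, the WT libraries lay between -28.8 and -22.9 and the 9 mutant libraries between -10.1 and 34.8, with replicate 2 the farthest from WT in each mutant. Each gene was tested with edgeR's quasi-likelihood test on the counts and called at an adjusted p (Benjamini-Hochberg over all tested genes, two-sided) below 0.05.

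Histone H2B pairs with H2A in the nucleosome, and its amino-terminal tail reaches out of the particle, where lysines can be acetylated by histone acetyltransferases and deacetylated by histone deacetylases. Acetylation neutralises the positive charge of lysine. Arginine keeps that charge, glutamine lacks it and is often used in place of acetyl-lysine, and alanine lacks both the charge and the length of the side chain. Fission yeast cells divide vegetatively while nutrients last, and on starvation they express mating genes under the transcription factor Ste11, conjugate and enter meiosis. S. pombe has a single H2B gene, htb1 (SPCC622.09), on chromosome III. The start of its coding sequence is shown because the substituted lysines lie there, with the codons of residues 5, 10 and 15, counted after the initiator methionine, in capitals (RefSeq sequence of assembly ASM294v3, III:1412484-1412543, plus strand).
htb1 codons of the amino-terminal tail: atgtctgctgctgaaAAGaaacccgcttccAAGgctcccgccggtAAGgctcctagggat
All 3 codons are AAG, for lysine. The codon of residue 16 is GCT, for alanine, so the reference sequence has no lysine at the position that the label of A replicate 2 names.

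The mutated gene did not move in 1 direction. The level of htb1 was 3007, 3287 and 3350.1 CPM in the WT libraries, at 16545, 9921 and 5929 CPM in those of A, at 1134, 1193 and 1281 in those of Q and at 5621, 5486 and 5953 in those of R. A and R lay above WT and Q below it, with no overlap, so that 6 mutant libraries were above and 3 below the WT range. The mean of the 3 mutants was not called different from WT (log2 fold change 0.38 with SE 0.22 and adjusted p = 0.203), while the test among the 3 mutants was called (adjusted p = 0.000237). The annotated neighbours of htb1 differed from it. sec5 (SPCC622.10c), which encodes part of the exocyst, a tether of secretory vesicles, stood at 455, 383 and 458 CPM in WT, against 156, 148 and 105 CPM (A), 115, 165 and 117 CPM (Q) and 126, 187 and 126 CPM (R). All 9 mutant libraries were below every WT library (log2 fold change -1.64 with SE 0.15 and adjusted p = 0.000169), and the fitted changes were -1.66 (A), -1.71 (Q) and -1.56 (R). hta1 (SPCC622.08c), one of the H2A genes, stood at 423, 410.4 and 429 CPM in WT, while the A libraries held 345, 234 and 375, the Q libraries 216, 248 and 233 and the R libraries 455, 353 and 466 CPM. Of the mutant libraries 7 were below the WT range and 2, of R, above it (log2 fold change -0.42 with SE 0.13 and adjusted p = 0.0319). The mutants differed among themselves (adjusted p = 0.0338). The call of hta1 was lost without WT replicate 1, 2 or 3 (adjusted p = 0.108, 0.0802 and 0.116), in the mean of A and R alone (log2 fold change -0.21, adjusted p = 0.337) and with the 9 mutant libraries as 1 group (0.242). sec5 and htb1 lie on opposite strands and overlap over 9.3% of the length of sec5. How strand was handled in counting is not given in the sources used here, so reads of overlapping genes cannot be told apart.

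Nearly 1 gene in 3 was called in the mean of the mutants. Of 5024 genes tested, 1577 (31.4%) differed from WT, 821 higher (16.3%) and 756 lower (15%), and 2210 had an unadjusted p below 0.05. Most of these changes were small: the median size of the log2 fold change among called genes was 0.57, and 227 genes (4.52%) changed by at least 2-fold, 121 higher and 106 lower. A mean can be moved by 1 mutant, so each gene was also asked whether every mutant library lay on the same side of every WT library. That held for 1161 genes, with 598 above the WT range (11.9%) and 563 below (11.2%), and 1058 of them were called as well (21.1%). The remaining 519 called genes had mutant libraries within the WT range or on both sides of it. The number of calls rested on having 3 WT libraries, since it fell to 491 without WT replicate 1, 724 without WT replicate 2 and 476 without WT replicate 3. Of those, 490, 720 and 474 were among the 1577, none in the opposite direction. Leaving out replicate 2 of A, Q and R together gave 1741 calls. Leaving out any 1 mutant library gave between 1406 and 1669 calls, with 1415 without A replicate 2, whose label differs.

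**Figure D1:**
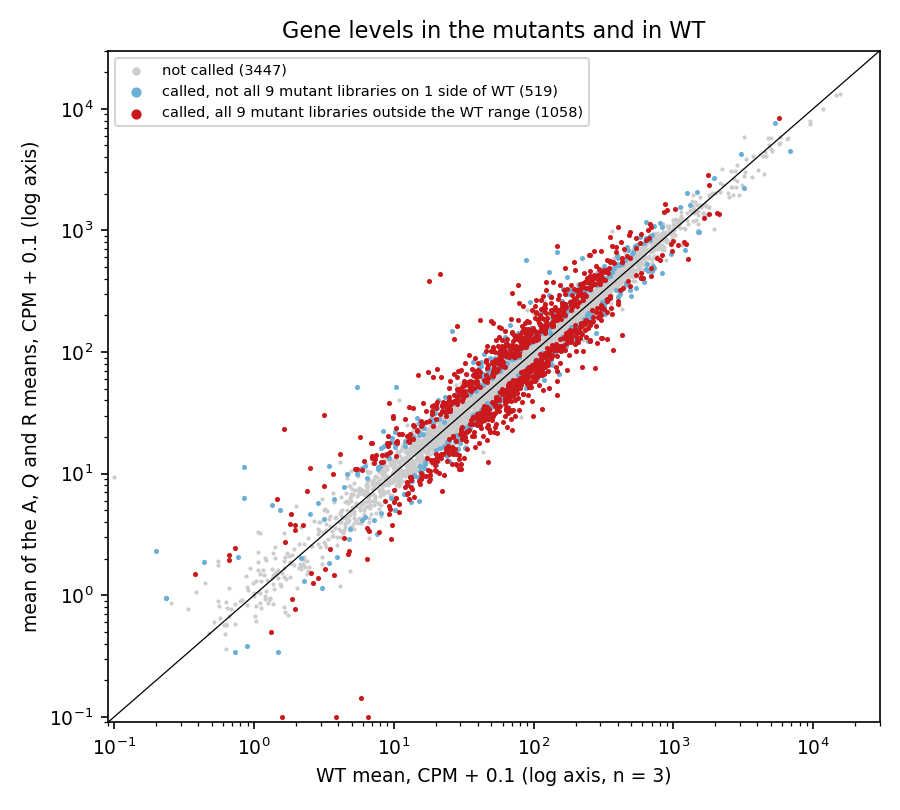
Each point is 1 of the 5024 genes tested, with its mean level in WT (x axis, n = 3) and the mean of the A, Q and R group means (y axis), both in CPM + 0.1 on log axes, and the line marks equal levels. The 1058 genes in red, called and with all 9 mutant libraries outside the WT range, lie on both sides of the line at every level, and most lie within a few fold of it.

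Calls were spread over the genome and over gene lengths. On chromosomes I, II and III, 31.9%, 31.2% and 30.3% of tested genes were called. With genes split into 3 equal classes by their mean level over all 12 libraries, 20.8% of the highest class were called higher, against 17.6% of the middle and 10.7% of the lowest class. Lower calls made up 17.3% of the middle and 17.8% of the lowest class, and fewer in the highest. With 3 classes by the length implied by FPKM and counts, 18.6% of the shortest genes were called higher, against 14.2% of the longest. The median log2 fold change of all tested genes was 0.002.

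Among the genes with the largest shared rises were regulators of sexual differentiation, a pheromone gene, a predicted proteasome regulator and a transporter. The 10 largest were taken among 86 genes that were called at least 2-fold higher, reached 5 CPM and had all 9 mutant libraries above WT. SPAC977.18, which RefSeq lists as uncharacterized, stood at 19.5, 26.4 and 18.3 CPM in the WT libraries, at 107, 332 and 111 CPM in those of A, at 255, 1086 and 644 in those of Q and at 259.9, 878 and 254 in those of R (log2 fold change 4.16 with SE 0.64 and adjusted p = 0.00261). fub2 (SPBP4G3.03), a predicted regulator of the proteasome of the PI31 family, stood at 19.8, 19.0 and 14.4 CPM in WT, against 34.0, 219.8 and 102 CPM (A), 216, 841 and 669.8 CPM (Q) and 244, 815 and 304 CPM (R) (log2 fold change 4.14 with SE 0.68 and adjusted p = 0.00304). For both genes every mutant library was above WT, A was the lowest mutant group and replicate 2 the highest library of each mutant. mei2 (SPAC27D7.03c), an RNA-binding protein needed to enter meiosis, stood at 2.46, 2.70 and 4.05 CPM in WT, while the A libraries held 9.71, 23.4 and 14.2, the Q libraries 31.1, 62.6 and 35.6 and the R libraries 21.2, 52.1 and 22.9 CPM (log2 fold change 3.19 with SE 0.42 and adjusted p = 0.00128). ste11 (SPBC32C12.02), the transcription factor at the head of mating and early meiosis, stood at 23.2, 33.0 and 29.0 CPM in the WT libraries, at 76.9, 85.5 and 124 CPM in those of A, at 73.4, 219 and 171 in those of Q and at 197, 245 and 274 in those of R (log2 fold change 2.42 with SE 0.31 and adjusted p = 0.00107). In both, the lowest mutant library was above the highest WT library by over 2-fold. mfs3 (SPBC36.03c), which RefSeq lists as a spermidine family transporter, rose from 94.6, 165 and 183 CPM in WT to levels from 488 CPM (A replicate 1) to 1269 CPM (R replicate 2) with a median of 579 CPM (log2 fold change 2.28 with SE 0.23 and adjusted p = 0.000341).

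The list also held SPAC977.02 (log2 fold change 3.67 with SE 0.70 and adjusted p = 0.00444) and SPAC977.04 (log2 fold change 2.12 with SE 0.39 and adjusted p = 0.00414). The other 3 were mfm2 (log2 fold change 2.10 with SE 0.24 and adjusted p = 0.000736), the StringTie locus MSTRG.2452 (log2 fold change 2.06 with SE 0.35 and adjusted p = 0.00312) and mde6 (log2 fold change 2.05 with SE 0.33 and adjusted p = 0.00279), which RefSeq lists as a muskelin. mfm2 encodes a precursor of the mating pheromone M-factor. SPAC977.02, SPAC977.04 and SPAC977.18 lie near an end of chromosome I and each has 3 copies elsewhere in the reference at up to 99.0%, 99.8% and 98.6% identity, so their counts may hold reads of those copies. For all 10 genes the test among the mutants was not called (adjusted p between 0.0625 and 0.23), and none lost its call under the alternatives tried.

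The largest shared falls were of genes with varied roles, among them a GABA transaminase, a predicted dUTPase, a tRNA-processing enzyme, a splicing factor and the pheromone gene map2. The 10 largest were taken by the same conditions among 72 genes. uga1 (SPAC19D5.07), a GABA transaminase, had 155, 93 and 95 counts in WT replicates 1, 2 and 3 (7.61, 5.58 and 6.10 CPM) and 0 counts in all 9 mutant libraries, which is at least 33.9-fold lower against the floor of 3 counts per library (adjusted p = 0.000414). dut1 (SPAC644.05c), a predicted dUTPase, had 136, 97 and 71 counts in WT, 3 counts each in R replicates 1 and 3 and 0 in the other 7 mutant libraries (adjusted p = 0.000248). The annotation places uga1 and dut1 wholly inside a measured gene on the other strand, SPAC14C4.01c and pct1. Neither of those was called (log2 fold change -0.10, adjusted p = 0.345, and 0.29, adjusted p = 0.051). What part reads of the other strand have in these values was not tested. SPAC6C3.05 and the asparagine synthase gene SPBC4F6.11c, chosen after their values were seen, were the other genes with counts in WT and 0 in every mutant library, at means of 1.48 and 3.74 CPM in WT.

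pdi4 (SPAC959.05c), a predicted protein disulfide isomerase, fell from 392, 333 and 381 CPM in WT to levels from 30.6 CPM (R replicate 2) to 216 CPM (R replicate 3) with a median of 93.8 CPM (log2 fold change -1.90 with SE 0.41 and adjusted p = 0.00746). trz2 (SPBC3D6.03c), a mitochondrial enzyme that trims the 3' end of tRNAs, fell from 298, 238 and 284 CPM to levels from 31.1 CPM (R replicate 2) to 131 CPM (R replicate 1) with a median of 66.4 CPM (log2 fold change -1.96 with SE 0.33 and adjusted p = 0.00312). prp38 (SPBC19C2.08), a subunit of the spliceosome's tri-snRNP, fell from 135, 97.6 and 114 CPM to levels from 12.9 CPM (R replicate 2) to 64.0 CPM (R replicate 3) with a median of 28.1 CPM (log2 fold change -1.81 with SE 0.35 and adjusted p = 0.00464). In these 3 genes the highest mutant library stayed below the lowest WT library, and the lowest mutant library was replicate 2 of R. The malonyltransferase gene mct1 (-1.74, adjusted p = 0.00481), the RNA endonuclease gene swt1 (-1.88, adjusted p = 0.00367), SPAC27F1.10 (-1.76, adjusted p = 0.00435) and the P-factor gene map2 (-1.76, adjusted p = 0.00607) completed the list. The last was SPAC11D3.06, a predicted transporter of the MatE family. SPAC11D3.06 stood at 52.8, 38.4 and 51.4 CPM in WT, against 32.5, 8.84 and 24.0 CPM (A), 3.49, 0.915 and 7.37 CPM (Q) and 17.6, 0 and 17.1 CPM (R) (log2 fold change -2.25 with SE 0.70 and adjusted p = 0.0307). swt1 overlaps SPCC24B10.16c on the other strand over 88.2% of its length, and that gene was not called (-0.15, adjusted p = 0.248). SPAC11D3.06 lies wholly within toe4 on the other strand (0.02, adjusted p = 0.873). It was no longer called when WT replicate 1, 2 or 3 was left out (adjusted p = 0.105, 0.0667 and 0.103), with DESeq2 (0.0969), with limma on the deposited FPKM (0.08), in the mean of A and R alone (0.135) and with the 9 mutant libraries as 1 group (0.108).

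**Figure D2:**
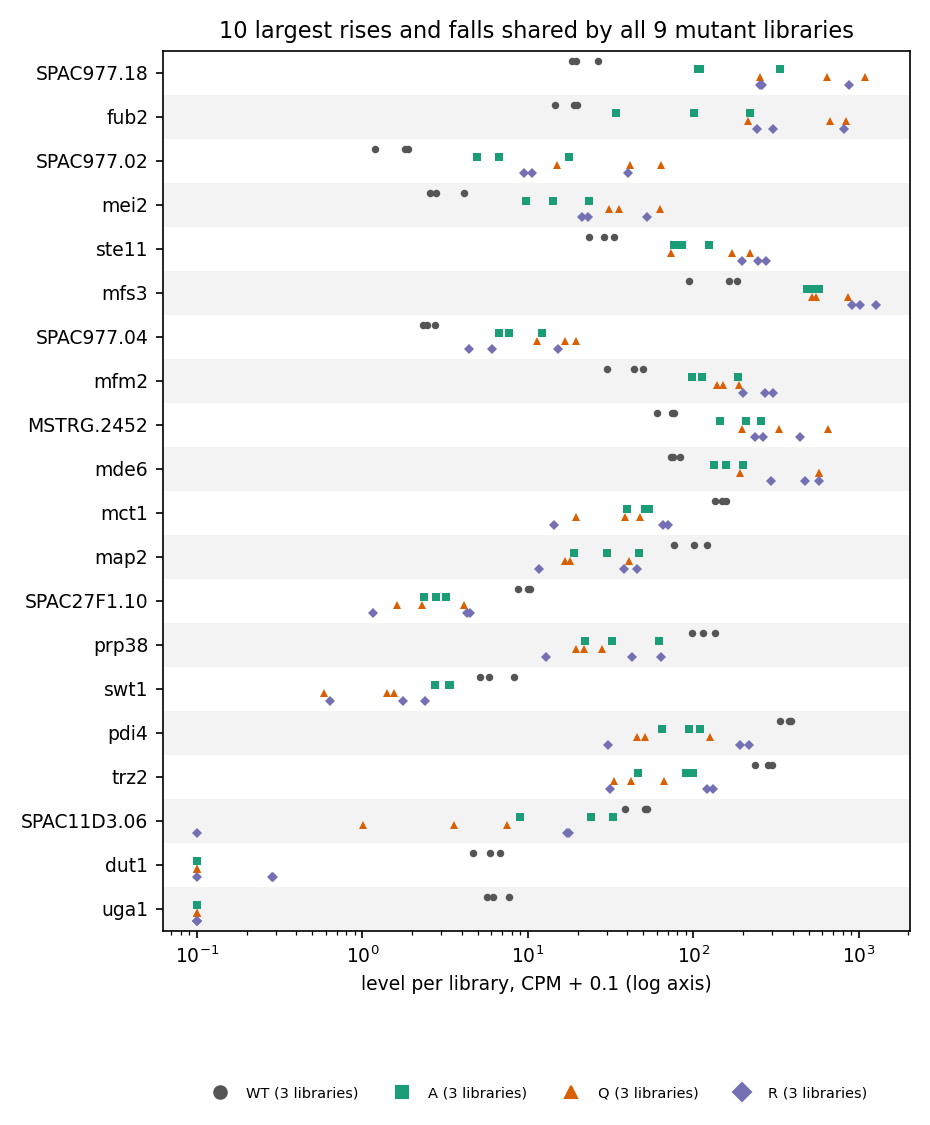
Levels of the 10 genes with the largest rises (top) and the 10 with the largest falls (bottom) that all 9 mutant libraries share, as CPM + 0.1 on a log axis. Each symbol is 1 library, by group. In every gene the mutant libraries lie on 1 side of the 3 WT libraries, and uga1 has 0 counts in all 9.

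Some genes changed by nearly the same factor whichever residue replaced the lysines. The 6 most even per direction were taken, by the smallest range of the 3 mutant log2 fold changes, among the genes called at least 2-fold with all 9 libraries on 1 side. dam1 (SPAC589.08c), a subunit of the DASH complex that couples kinetochores to microtubules, stood at 6.04, 2.94 and 7.90 CPM in WT, while the A libraries held 16.5, 26.2 and 15.6, the Q libraries 15.4, 27.4 and 18.0 and the R libraries 15.03, 26.1 and 19.6 CPM. All mutant libraries were above WT and the 3 mutant groups nearly coincided, with log2 fold changes of 1.79 (A), 1.85 (Q) and 1.85 (R) (log2 fold change 1.83 with SE 0.32 and adjusted p = 0.00371). bit2 (SPAC6B12.03c), predicted to act in TOR signalling, stood at 9.73, 10.1 and 9.37 CPM in the WT libraries, at 17.9, 38.0 and 31.6 CPM in those of A, at 36.6, 29.6 and 29.9 in those of Q and at 23.9, 38.3 and 20.5 in those of R. The changes were 1.58 (A), 1.72 (Q) and 1.50 (R) (log2 fold change 1.60 with SE 0.25 and adjusted p = 0.00261). pcm1 (SPCC330.10), the methyltransferase that completes the mRNA cap, stood at 6.53, 7.32 and 6.68 CPM in WT, against 14.3, 18.5 and 14.7 CPM (A), 20.6, 20.2 and 15.6 CPM (Q) and 13.0, 27.2 and 16.6 CPM (R). Its changes were 1.21 (A), 1.46 (Q) and 1.47 (R) (log2 fold change 1.38 with SE 0.22 and adjusted p = 0.00295). In both genes the lowest mutant library was above the highest WT library. The other even rises were SPAC15E1.02c (1.29), the predicted dehydrogenase SPAC2E1P3.01 (1.38) and the StringTie locus MSTRG.4827 (1.01).

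Even falls included sec5 above and rlp1 (SPBC1685.11), a RecA-family ATPase of recombinational repair, which stood at 86.0, 61.4 and 74.1 CPM in WT, while the A libraries held 24.1, 24.0 and 36.0, the Q libraries 25.7, 26.2 and 34.4 and the R libraries 29.4, 21.2 and 47.2 CPM. No mutant library of rlp1 reached WT, and the changes were -1.40 (A), -1.36 (Q) and -1.18 (R) (log2 fold change -1.31 with SE 0.20 and adjusted p = 0.00261). SPAC9E9.05 (-1.17, adjusted p = 0.00215), the gene of sororin, a regulator of cohesin, dph2 (-1.07, adjusted p = 0.0129), a predicted enzyme of diphthamide synthesis, and SPBC19G7.04, listed in RefSeq as a repair protein of DNA cross-links (-1.18, adjusted p = 0.0172) were the others. Without WT replicate 1 or 3 the calls of MSTRG.4827 (adjusted p = 0.0592 and 0.0719), dph2 (0.0634 and 0.0534) and SPBC19G7.04 (0.0672 and 0.0622) were lost, the last also without WT replicate 2 (0.0569). uga1 also met the rule, but with 0 counts in every mutant library its factor is only bounded. The changes of A, Q and R are measured against the same 3 WT libraries, so their likeness is given as a description, and a test among the mutants that is not called does not show that they were equal.

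**Figure D3:**
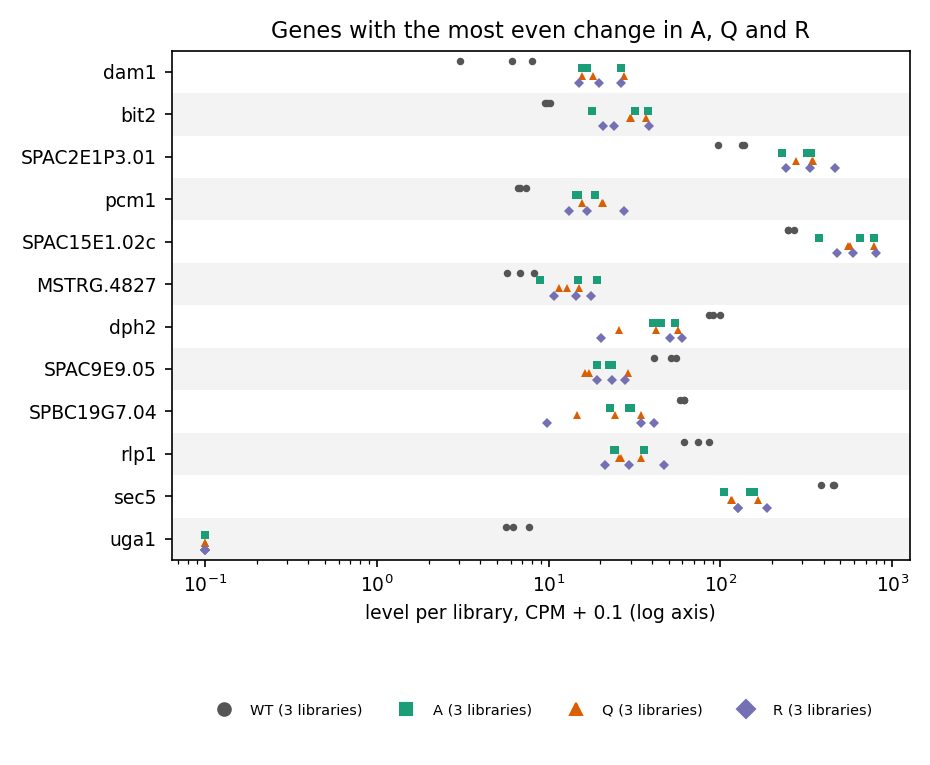
Levels in all 12 libraries of the 12 genes whose change was most even across A, Q and R, as CPM + 0.1 on a log axis, with 1 symbol per library. The A, Q and R symbols of each gene lie over each other and apart from WT, as in dam1 and sec5.

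The regulators Ste11 and Mei2 and several signalling genes upstream of them had higher transcript levels. Of 25 tested genes of mating and early sexual differentiation 11 were called higher and 0 lower, 7 with all 9 libraries above WT, against 16.3% and 15% of all tested genes. The list's median log2 fold change was 0.39, beside 0.002 over all genes, and was 0.21 without WT replicate 1 and 0.20 in the mean of A and Q alone. The number higher was 8, 9 and 8 without WT replicate 1, 2 and 3 and 10, with 1 lower, without replicate 2 of every mutant. In this pathway a pheromone receptor acts through the G protein Gpa1, and Ras1, the adaptor Ste4 and a kinase cascade ending in the MAP kinase Spk1 lead to Ste11, which activates mei2. gpa1, which encodes the G protein alpha subunit, stood at 85.8, 107 and 98.4 CPM in the WT libraries, at 146, 195 and 178 CPM in those of A, at 219.7, 289 and 234 in those of Q and at 223, 293 and 209 in those of R (log2 fold change 1.17 with SE 0.14 and adjusted p = 0.00105). ras1, the gene of the GTPase that activates the cascade, stood at 27.2, 31.5 and 26.6 CPM in WT, against 46.9, 68.5 and 45.2 CPM (A), 68.8, 78.4 and 61.9 CPM (Q) and 56.8, 73.1 and 65.1 CPM (R) (log2 fold change 1.13 with SE 0.15 and adjusted p = 0.00128). ste4 stood at 7.91, 9.60 and 9.76 CPM in WT, while the A libraries held 30.7, 36.5 and 30.5, the Q libraries 39.4, 44.2 and 49.2 and the R libraries 30.7, 45.3 and 35.4 CPM (log2 fold change 2.05 with SE 0.16 and adjusted p = 2.77e-05). In these 3 genes every mutant library was above every WT library, and A had the lowest group mean of the mutants.

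spk1 stood at 10.5, 9.84 and 10.7 CPM in the WT libraries, at 10.5, 39.7 and 30.8 CPM in those of A, at 63.0, 40.6 and 36.2 in those of Q and at 57.2, 125 and 58.4 in those of R (log2 fold change 2.17 with SE 0.40 and adjusted p = 0.00408). Its lowest mutant library, A replicate 1, lay within the WT range and the others above it. ste6, which encodes the exchange factor of Ras1, stood at 10.5, 8.28 and 6.29 CPM in WT, against 15.8, 10.5 and 10.7 CPM (A), 9.22, 31.8 and 46.0 CPM (Q) and 14.1, 41.2 and 20.4 CPM (R) (log2 fold change 1.32 with SE 0.44 and adjusted p = 0.0412). Its Q replicate 1 overlapped WT. ste7 (1.23, adjusted p = 0.00635), an arrestin-family protein, and map1 (1.69, adjusted p = 0.00147), a MADS-box factor of P cells, were also called higher. So were mbx1 (2.02, adjusted p = 0.0101), another MADS-box factor, and isp3 (0.89, adjusted p = 0.0264). Members that were not called included the kinases byr1 (0.15) and byr2 (-0.24), the regulator rgs1 (0.44), the formin gene fus1 (-0.30) and mei3 (-0.67), the activator of meiosis.

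The regions before the annotated transcript starts of mei2, ste11 and spk1, 3 called genes of this list, are shown because they hold the core of the TR box, the sequence that Ste11 binds, searched as TTCTTTGT on both strands and given in capitals (300 bases, 5' to 3' towards the gene, RefSeq, assembly ASM294v3).
mei2, I:4515026-4515325, minus strand: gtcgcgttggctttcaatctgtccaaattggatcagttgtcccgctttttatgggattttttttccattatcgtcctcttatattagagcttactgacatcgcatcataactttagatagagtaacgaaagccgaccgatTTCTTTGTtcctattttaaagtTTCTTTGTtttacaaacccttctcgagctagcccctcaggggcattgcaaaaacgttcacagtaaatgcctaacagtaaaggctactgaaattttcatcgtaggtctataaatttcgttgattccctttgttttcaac
ste11, II:3983076-3983375, plus strand: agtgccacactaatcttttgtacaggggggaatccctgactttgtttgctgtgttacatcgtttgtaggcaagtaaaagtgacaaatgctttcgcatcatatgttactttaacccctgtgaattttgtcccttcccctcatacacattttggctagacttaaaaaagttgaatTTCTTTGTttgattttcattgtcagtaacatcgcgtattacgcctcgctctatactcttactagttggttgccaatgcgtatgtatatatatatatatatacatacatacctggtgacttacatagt
spk1, I:3001519-3001818, minus strand: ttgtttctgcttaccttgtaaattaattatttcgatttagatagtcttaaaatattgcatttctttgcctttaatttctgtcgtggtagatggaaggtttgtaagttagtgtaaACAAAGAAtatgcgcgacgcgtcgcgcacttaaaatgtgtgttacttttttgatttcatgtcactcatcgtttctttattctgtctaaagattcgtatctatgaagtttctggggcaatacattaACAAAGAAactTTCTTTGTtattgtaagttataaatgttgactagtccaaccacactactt
The core occurred 2 times before mei2, 3 times before spk1 and 1 time before ste11. It was found in 8 of 25 regions of the list and in 6 of the 11 called higher (mei2, ste11, spk1, ste4, ste6 and ste7). Over all 4983 regions of tested genes 3.7% held it, and among genes called higher 5.0% of 815 did. A match of letters is a description of the window and not a binding site.

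Most called genes of the M-specific list were higher, and of the 3 genes of the P-specific list 2 were lower. map1, the factor of P cells counted with the mating genes above, was higher (1.69, adjusted p = 0.00147). The reading of the P side therefore depends on which genes are listed. Of 8 tested M-specific genes 5 were called higher and 1 lower, against 16.3% and 15% of all tested genes. Of 3 P-specific genes 1 was called higher and 2 lower. Both sets of genes were read in WT, from 0.900 CPM (mfm3, mean of 3) to 1029 CPM (sxa1). mfm2 stood at 29.9, 49.8 and 43.9 CPM in WT, while the A libraries held 98.5, 187 and 113, the Q libraries 138, 151 and 188 and the R libraries 272, 199 and 302 CPM. mam1, which encodes the exporter of M-factor, stood at 38.4, 37.6 and 37.7 CPM in the WT libraries, at 60.6, 64.9 and 83.7 CPM in those of A, at 67.3, 62.9 and 74.7 in those of Q and at 133, 105 and 151 in those of R (log2 fold change 1.17 with SE 0.13 and adjusted p = 0.000736). mam2, which encodes the receptor for P-factor on M cells, stood at 17.0, 14.8 and 12.8 CPM in WT, against 24.3, 31.6 and 29.6 CPM (A), 28.2, 87.3 and 73.2 CPM (Q) and 77.4, 132 and 95.8 CPM (R) (log2 fold change 1.93 with SE 0.31 and adjusted p = 0.00278). All 9 mutant libraries were above WT in the 3 genes, and R had the highest group mean. For mam1 and mam2 the mutants differed among themselves (adjusted p = 0.00712 and 0.0281).

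mat1-Mc, whose product specifies the M type, stood at 32.7, 50.5 and 42.8 CPM in WT, while the A libraries held 46.3, 109.8 and 65.4, the Q libraries 116, 78.3 and 80.9 and the R libraries 82.0, 87.4 and 83.0 CPM (log2 fold change 0.98 with SE 0.23 and adjusted p = 0.0109), with A replicate 1 inside the WT range. mam4, which encodes the methyltransferase that matures M-factor, was called higher (0.48, adjusted p = 0.0176). sxa2, the gene of the carboxypeptidase with which M cells degrade P-factor, was the M-specific gene called lower (-0.58, adjusted p = 0.00312), and mfm1 (0.46) and mfm3 (-0.04) were not called. On the P side, map2, the P-factor gene, stood at 121, 76.2 and 102 CPM in the WT libraries, at 30.1, 19.0 and 46.6 CPM in those of A, at 17.8, 16.7 and 41.0 in those of Q and at 38.3, 11.6 and 45.8 in those of R. map3, which encodes the receptor for M-factor, stood at 55.9, 47.1 and 54.6 CPM in WT, against 29.3, 19.9 and 33.8 CPM (A), 19.3, 19.1 and 26.1 CPM (Q) and 30.0, 8.25 and 29.7 CPM (R) (log2 fold change -1.14 with SE 0.29 and adjusted p = 0.0132). All mutant libraries were below WT in both genes, and R replicate 2 was the lowest. sxa1, an aspartic protease gene, stood at 1043, 1014 and 1031 CPM in WT, while the A libraries held 1044, 1389 and 1211, the Q libraries 1316, 2029.6 and 1496 and the R libraries 1643, 1718 and 1667 CPM (log2 fold change 0.53 with SE 0.13 and adjusted p = 0.0136), above WT in all 9. The M-specific genes called higher numbered 4, 4 and 3 without WT replicate 1, 2 or 3. map3 lies almost wholly within SPAC3F10.09 on the other strand (-0.32, adjusted p = 0.153). The calls of map3 and sxa1 were lost without WT replicate 1 (adjusted p = 0.0622 and 0.0609) or 3 (0.0604 and 0.0645), and that of sxa1 also without WT replicate 2 (0.0603). In RNA from whole cultures a change in the share of M and P cells and a change in the RNA per cell cannot be told apart.

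**Figure D4:**
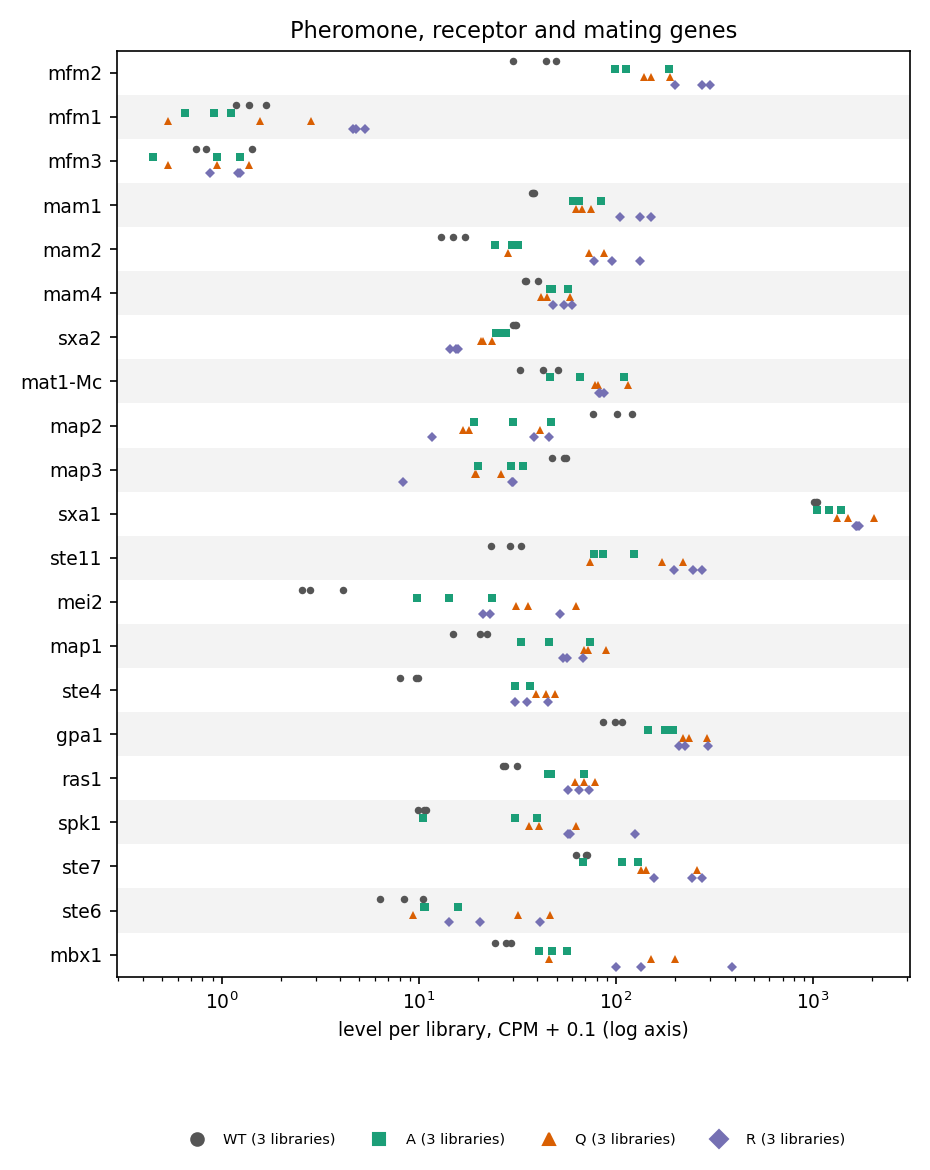
Levels of M-specific genes (top), P-specific genes and genes of the pheromone and mating pathway (bottom) in each library, as CPM + 0.1 on a log axis. Mutant symbols lie to the right of WT for mfm2, mam1, mam2, ste11, mei2, ste4 and gpa1 and to its left for map2, map3 and sxa2.

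The proteasome is the complex that degrades ubiquitinated proteins. Of its 39 tested genes, with its regulators, 17 were called higher and 0 lower, against 16.3% and 15% of all tested genes. In all, 19 had all 9 mutant libraries above WT, and the median log2 fold change was 0.25. Beside fub2 the largest rise was rpn2, a subunit of the regulatory particle, at 285, 272 and 261 CPM in the WT libraries, at 489, 678 and 528 CPM in those of A, at 708, 918 and 597 in those of Q and at 534, 1091 and 579 in those of R (log2 fold change 1.31 with SE 0.22 and adjusted p = 0.00315). pre6, an alpha subunit of the core particle, stood at 164, 175 and 166 CPM in WT, against 209, 255 and 213 CPM (A), 274, 248 and 218 CPM (Q) and 259, 291 and 251 CPM (R) (log2 fold change 0.55 with SE 0.10 and adjusted p = 0.00398). Every mutant library of both genes was above WT. The others called were mts4 (0.70), pam1 (0.63), rpt1 (0.61), rpn8 (0.60), pts1, pre1, rpn10, rpt4, rpn7, rpn12, pre9, rpn1301, pre10 and pup1 (0.29, the smallest). Leaving out WT replicate 1, 2 or 3 brought the number called to 8, 10 and 6, with none lower. Without replicate 2 of every mutant it was 17.

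Of 138 tested genes of cytosolic ribosomal proteins 21 were called higher and 0 lower, with a median log2 fold change of 0.09, which was 0.19 without WT replicate 2 and 0.05 without A replicate 2. That share of higher calls is close to the 16.3% of all genes, while none was called lower. rpl902 stood at 259, 245 and 243 CPM in WT, while the A libraries held 297, 391 and 279, the Q libraries 401, 432 and 356 and the R libraries 384, 438 and 425 CPM (log2 fold change 0.60 with SE 0.11 and adjusted p = 0.00444), with all 9 above WT. rpl802 (0.75, adjusted p = 0.00668) and rpl3402 (0.61, adjusted p = 0.00828) had the next lowest p-values, and rpl802 has copies at up to 92.9% identity. The count was 2, 8 and 2 without WT replicate 1, 2 and 3, and 12 with limma on FPKM. It was 37 in the mean of Q and R, 12 in that of A and R, and 4 higher with 1 lower in that of A and Q. Of 83 genes of ribosome biogenesis 10 were higher and 16 lower, near the 16.3% and 15% of all genes, and without WT replicate 1, 2 or 3 2, 2 and 1 higher and 4, 9 and 5 lower. rix7, an AAA-type ATPase of ribosome assembly, fell (-0.85, adjusted p = 0.00349) and nhp2, of the H/ACA particles, rose (0.45, adjusted p = 0.00607). Of 45 genes of mitochondrial ribosomal proteins 8 were higher, led by mrpl17 (0.78, adjusted p = 0.00299), and 5 lower. The numbers higher, without WT replicate 1, 2 or 3, were 4, 6 and 4 and the numbers lower 1, 3 and 1. With replicate 2 of A or of R left out, 5 were higher.

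Nitrogen starvation sends fission yeast into sexual differentiation. A list drawn up for nitrogen starvation and amino acid uptake also holds genes of arginine and GABA metabolism, such as car1, arg3, arg5 and uga1. Of its 24 tested genes 10 were called lower and 1 higher, against 15% and 16.3% of all tested genes. The list had 9 below WT in all 9 libraries and a median log2 fold change of -0.20. car1, the gene of arginase, stood at 121, 105 and 125 CPM in the WT libraries, at 64.1, 49.7 and 68.1 CPM in those of A, at 62.0, 34.2 and 45.4 in those of Q and at 58.6, 25.3 and 32.9 in those of R (log2 fold change -1.29 with SE 0.21 and adjusted p = 0.00312). aat1, an amino acid permease gene, stood at 33.1, 26.95 and 28.2 CPM in WT, against 22.1, 11.3 and 25.6 CPM (A), 12.9, 15.5 and 13.0 CPM (Q) and 11.0, 6.65 and 9.62 CPM (R) (log2 fold change -1.12 with SE 0.21 and adjusted p = 0.00423). In both genes no mutant library reached WT and R replicate 2 was the lowest. Beside these and uga1, the vacuolar transporter gene fnx1 was lower (-0.65). So were the ammonium transporter genes amt3 (-0.61) and amt2 (-0.42), the permease genes cat1 (-0.52) and agp3 (-0.45), and arg3 (-0.47) and arg5 (-0.44) of arginine synthesis. isp5, an amino acid permease gene induced on nitrogen starvation, was called higher, from 26.0 ± 11.3 CPM in WT to 33.9 ± 3.89 in A, 310.2 ± 309 in Q and 101.1 ± 28.4 in R (mean ± SD, n = 3; log2 fold change 1.98 with SE 0.57 and adjusted p = 0.0238). The number lower was 6, 7 and 5 without WT replicate 1, 2 or 3, and isp5 was then not called. Without replicate 2 of every mutant 10 were lower.

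Other lists of nutrient and cell-surface genes were small, and are set beside 15% lower and 16.3% higher of all tested genes. Of 8 thiamine-repressible or thiamine-related genes 4 were called lower and 0 higher, led by tnr3 (-0.65, adjusted p = 0.00493). It encodes thiamine pyrophosphokinase. Of 8 flocculin genes, which encode adhesive cell-wall glycoproteins, 5 were lower, led by pfl3 (-0.89, adjusted p = 0.00295), and pfl9 was higher (1.06, adjusted p = 0.00261). Of 15 genes of iron and copper uptake 4 were lower, among them fio1 (-1.25, adjusted p = 0.00705) and fip1 (-0.99, adjusted p = 0.0313), the oxidase and permease of reductive iron uptake. The copper transporter gene ctr5 was higher (0.96, adjusted p = 0.00133). 3 of 4 galactose genes were higher, gal7 (0.95, adjusted p = 0.00231), gal1 (0.88, adjusted p = 0.00367) and gal10 (1.14, adjusted p = 0.00961), and mel1 was not called (0.39). Without WT replicate 1, 2 or 3 the numbers lower were 2, 2 and 2 for thiamine, 2, 2 and 2 for flocculins and 0, 4 and 3 for iron. The galactose genes called higher numbered 3, 3 and 2. gal10 overlaps SPBPB2B2.11 on the other strand over 93.7% of its length, and that gene was not called (-0.12, adjusted p = 0.822).

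Enzymes that write or remove histone acetylation changed in both directions. mst2, the gene of an acetyltransferase of histone H3, stood at 74.2, 83.3 and 74.5 CPM in WT, while the A libraries held 127, 128 and 154, the Q libraries 147, 238 and 235 and the R libraries 198, 227 and 207 CPM (log2 fold change 1.23 with SE 0.15 and adjusted p = 0.000963). naa40, predicted to acetylate the amino terminus of histones, stood at 7.61, 7.86 and 7.64 CPM in the WT libraries, at 4.44, 4.39 and 2.94 CPM in those of A, at 2.93, 1.95 and 3.43 in those of Q and at 2.46, 1.78 and 4.49 in those of R (log2 fold change -1.28 with SE 0.25 and adjusted p = 0.00492). The first was above and the second below WT in all 9 mutant libraries. mst2 lies wholly within sec3 on the other strand, which was not called (0.46). hat1 (0.67, adjusted p = 0.0156) was also called higher and gcn5, of the SAGA complex, lower (-0.59, adjusted p = 0.0235). In all, 4 of 7 acetyltransferase genes were called, against 31.4% of all tested genes, and 1 higher and 1 lower without WT replicate 1 or 3. Of 6 deacetylase genes sir2 fell from 272, 213 and 233 CPM to levels from 61.0 CPM (R replicate 2) to 198 CPM (A replicate 3) with a median of 139 CPM (log2 fold change -0.86 with SE 0.27 and adjusted p = 0.0296). clr6 rose (0.42, adjusted p = 0.0348). With 1 higher and 1 lower of 6, the deacetylase genes lay near the 16.3% and 15% of all tested genes. When WT replicate 1, 2 or 3 was left out, neither deacetylase was called (adjusted p between 0.062 and 0.127).

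Of 21 genes of heterochromatin and RNA interference 6 were called lower and 3 higher, against 15% and 16.3% of all tested genes, with a median log2 fold change of -0.35. clr4, the gene of the main heterochromatic histone H3 methyltransferase, stood at 75.8, 80.7 and 72.9 CPM in WT, against 66.1, 43.3 and 72.9 CPM (A), 45.9, 37.9 and 49.0 CPM (Q) and 50.8, 38.5 and 57.2 CPM (R) (log2 fold change -0.59 with SE 0.15 and adjusted p = 0.0155). clr2, of the SHREC silencing complex, stood at 71.4, 63.1 and 72.1 CPM in WT, while the A libraries held 54.4, 26.7 and 46.0, the Q libraries 34.9, 28.6 and 37.4 and the R libraries 53.4, 22.7 and 49.0 CPM (log2 fold change -0.82 with SE 0.23 and adjusted p = 0.0219). In both genes no mutant library rose above the lowest WT library. chp2 (-0.63), tas3 (-0.62), rdp1 (-0.48) and hrr1 (-0.40) were lower and rik1 (0.94), arb2 (0.52) and swi6 (0.25), the main heterochromatin protein, higher. None of these calls held without WT replicate 1, 2 or 3, and without Q replicate 3 the number lower was 11. rik1 overlaps SPCC11E10.09c on the other strand over 91.9% of its length, and that gene was called higher too (1.80, adjusted p = 0.0341). What part its reads have in the values of rik1 was not tested. Of 11 core histone genes 2 were called higher and 2 lower, near the 16.3% and 15% of all tested genes. hta1 and hht1 (-0.32, adjusted p = 0.0498) were lower and hhf2 (0.37, adjusted p = 0.0293) and pht1, the gene of H2A.Z (0.40, adjusted p = 0.031), higher. Again none was called without any 1 WT library.

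Genes of double-strand break repair, the subject of the study's title, were called in both directions. Of 29 tested genes of homologous recombination 4 were called higher and 6 lower, near the 16.3% and 15% of all tested genes. rdl1, the gene of a partner of Rlp1, stood at 27.5, 24.7 and 27.7 CPM in the WT libraries, at 14.4, 11.8 and 16.8 CPM in those of A, at 13.0, 11.95 and 14.1 in those of Q and at 14.8, 13.9 and 19.2 in those of R (log2 fold change -0.89 with SE 0.14 and adjusted p = 0.00261). swi5, the gene of a mediator of strand exchange, stood at 4.91, 3.78 and 2.05 CPM in WT, against 8.42, 8.84 and 9.38 CPM (A), 7.72, 10.8 and 11.4 CPM (Q) and 8.44, 14.5 and 9.43 CPM (R) (log2 fold change 1.45 with SE 0.27 and adjusted p = 0.00435). The mutants lay below WT in the first and above in the second in all 9 libraries. swi5 lies wholly within mis12 on the other strand (-0.003, adjusted p = 0.987). nbs1 (1.10, adjusted p = 0.0147), exo1 (0.88, adjusted p = 0.0214) and brc1 (0.98, adjusted p = 0.046) were also higher. Lower were fbh1 (-0.58, adjusted p = 0.0115), mus81 (-0.51, adjusted p = 0.0163), nse1 (-0.45, adjusted p = 0.0219) and ctp1 (-0.30, adjusted p = 0.0375). rad52 (-0.13) and rad54 (-0.02) of the central strand-exchange machinery were not called. Without WT replicate 1, 2 or 3 the numbers were 1, 1 and 1 higher and 2, 5 and 2 lower.

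Of 15 checkpoint genes 3 were called higher and 2 lower, against 16.3% and 15% of all tested genes. Without WT replicate 1, 2 or 3 the numbers were 2, 1 and 1 higher and 1, 1 and 1 lower. cds1, the gene of the replication checkpoint kinase, stood at 24.6, 27.7 and 22.9 CPM in WT, while the A libraries held 40.6, 53.8 and 45.7, the Q libraries 60.4, 89.0 and 73.9 and the R libraries 47.5, 73.9 and 32.2 CPM (log2 fold change 1.17 with SE 0.22 and adjusted p = 0.00444). rad3, the gene of the ATR kinase, stood at 59.3, 48.6 and 44.6 CPM in the WT libraries, at 71.3, 77.2 and 81.0 CPM in those of A, at 81.4, 151 and 188 in those of Q and at 77.0, 149 and 91.5 in those of R (log2 fold change 1.04 with SE 0.25 and adjusted p = 0.0109). rad4, a scaffold of the checkpoint and of replication, fell from 105, 107 and 112 CPM to levels from 68.5 CPM (R replicate 2) to 89.2 CPM (A replicate 1) with a median of 77.0 CPM (log2 fold change -0.49 with SE 0.08 and adjusted p = 0.00299). All 3 had every mutant library on 1 side of WT, and rad3 lost its call without WT replicate 2 or 3 (adjusted p = 0.0502 and 0.0641). Without replicate 2 of every mutant 5 checkpoint genes were higher. rad25 (0.36) was also higher and rad26 (-0.54) lower, and neither was called without any 1 WT library, while chk1 (0.46) and crb2 (-0.10) were not called. Of 5 end-joining genes lig4 was higher (0.44, adjusted p = 0.0361) and pku70 (-0.45, adjusted p = 0.0396) and xlf1 (-0.63, adjusted p = 0.0254) lower. None of these was called without any 1 WT library. Of 19 genes driven at the start of S phase by the MBF factor 3 were higher and 4 lower, the latter with mik1 (-0.85, adjusted p = 0.00682), yox1 (-0.70, adjusted p = 0.0102) and cdc18 (-0.67, adjusted p = 0.0105). The numbers higher were 0, 1 and 0 and lower 2, 3 and 2 without WT replicate 1, 2 or 3.

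The remaining lists had calls in both directions or few of them, and are set beside 16.3% higher and 15% lower of all tested genes. Of 27 autophagy genes 7 were higher, led by atg8 (0.60, adjusted p = 0.00338), the ubiquitin-like protein of the autophagosome, and 2 lower. Of 33 genes of oxidative phosphorylation 6 were higher, led by the ATP synthase gene atp5 (0.66, adjusted p = 0.00848), and cyc1 lower. Of 22 chaperone genes 5 were lower, led by hsp90 (-0.61, adjusted p = 0.0101) and ssc1 (-0.57, adjusted p = 0.0113), and 3 higher, led by cdc37 (1.25, adjusted p = 0.00212), the gene of a co-chaperone of Hsp90. cdc37 overlaps SPBC9B6.11c on the other strand over 85.9% of its length, and that gene was not called (0.23, adjusted p = 0.098). hsp90 differed among the mutants (adjusted p = 0.0178), with log2 fold changes of -0.01 (A), -1.10 (Q) and -0.73 (R). Of 75 splicing genes 13 were higher and 14 lower, near the shares of all genes. Of 99 mug genes (meiotically upregulated genes) 12 were higher and 23 lower. Of 35 genes of middle meiosis 5 were higher and 5 lower, again near the shares of all genes. Middle-meiosis genes called included mde6 higher and rem1, a meiotic cyclin gene, lower (-1.26, adjusted p = 0.00312). By contrast mei4, the factor that drives middle meiosis, was not called (-0.20).

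For the lists that follow, too, the shares of all tested genes were 16.3% higher and 15% lower. Higher and lower calls numbered 3 and 3 of 23 core environmental stress genes, with the trehalase gene ntp1 higher (0.78, adjusted p = 0.00449), and 2 and 5 of 23 oxidative stress genes. They numbered 4 and 2 of 19 genes of sugar metabolism, with the GAPDH gene gpd3 higher (0.99, adjusted p = 0.00635), and 0 and 1 of 7 hexose transporter genes. Cell separation had 1 and 3 of 14. The cell wall synthases had 3 and 0 of 15, the exocyst 2 and 1 of 8, with exo84 higher (0.70, adjusted p = 0.00607) beside the fall of sec5. Phosphate genes had 0 and 0 of 5. Of 137 tested genes near the ends of chromosomes I and II, 35 were higher and 23 lower, and 44 differed among the mutants, against 16.3%, 15% and 3.46% of all tested genes. In the mean of A and Q 51 were higher and 12 lower, and in that of A and R 23 and 24. Without WT replicate 1, 2 or 3, autophagy genes numbered 1, 1 and 1 higher and 0, 0 and 0 lower, those of oxidative phosphorylation 2, 1 and 0 higher and 0, 0 and 0 lower and those of splicing 4, 4 and 3 higher and 5, 9 and 5 lower. In the same way middle-meiosis genes numbered 1, 1 and 1 higher and 2, 4 and 2 lower, mug genes 5, 8 and 5 higher and 5, 10 and 6 lower and chaperone genes 1, 1 and 1 higher and 0, 2 and 0 lower. Genes near chromosome ends numbered 18, 20 and 15 higher and 9, 12 and 11 lower. For core environmental stress the numbers were 1, 1 and 1 higher and 0, 2 and 0 lower, and for oxidative stress 0, 1 and 0 and 2, 3 and 3. They were, for sugar metabolism, 2, 2 and 2 and 0, 1 and 0, for cell separation 0, 0 and 0 and 1, 1 and 2, for the exocyst 1, 1 and 1 and 1, 1 and 1, and none for the cell wall synthases and hexose transporters.

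**Figure D5:**
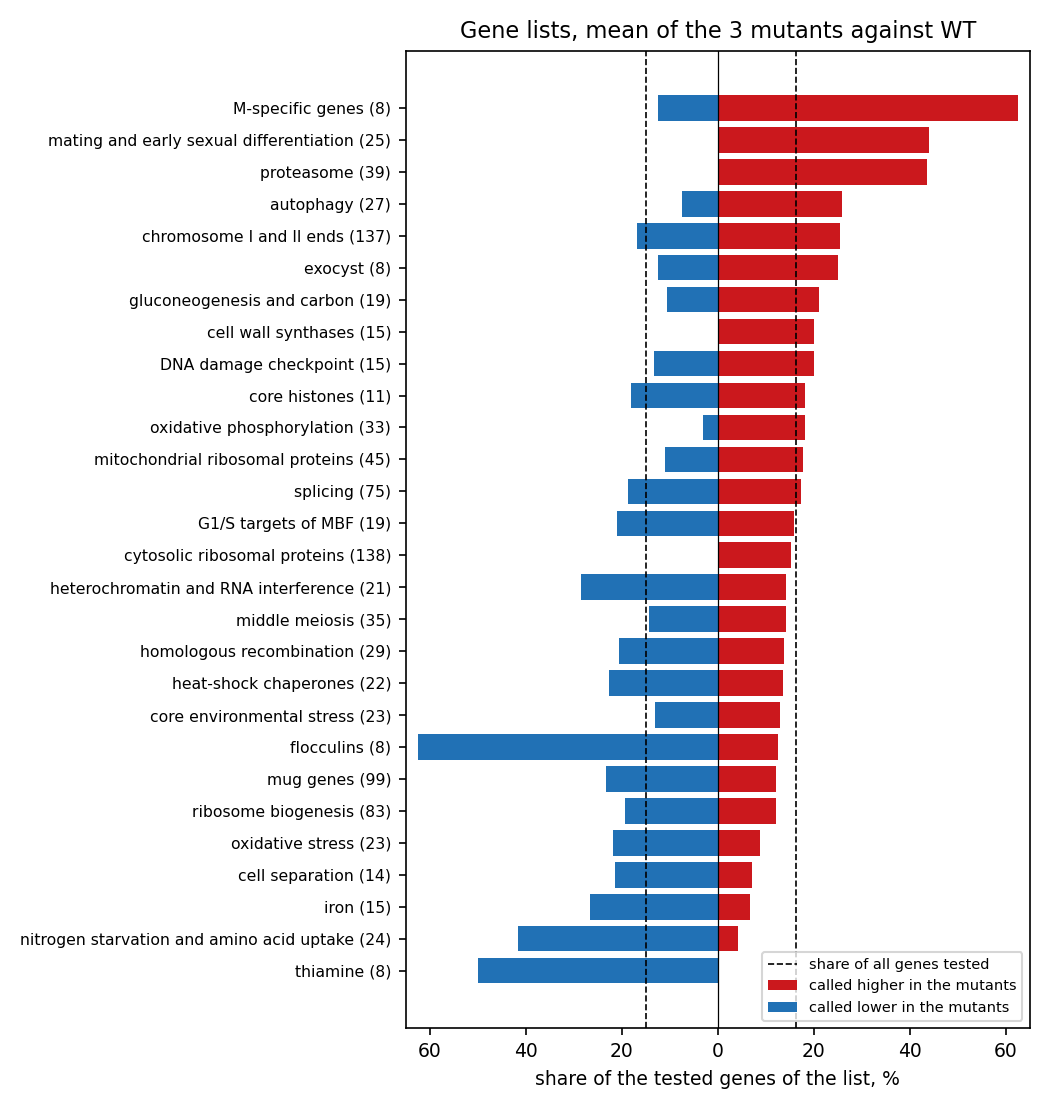
For each gene list with at least 8 tested members (number in brackets), bars give the percentage called higher (right, red) and lower (left, blue) in the mean of the 3 mutants against WT. Dashed lines mark the shares over all tested genes, 16.3% higher and 15% lower. The M-specific, proteasome and mating lists pass the right line by the most, and flocculin, thiamine and nitrogen genes the left.

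The mean hid genes in which the mutants parted. The test among A, Q and R called 174 genes (3.46%), of which 65 were also called in the mean against WT and 16 of those had all 9 mutant libraries outside the WT range. That number was the least settled, at 39 without R replicate 3, 377 without A replicate 2 and 1140 without replicate 2 of A, Q and R. The 4 genes called in the mean with the lowest p among the mutants lie near the right end of chromosome I: SPAC186.05c, pdc102, SPAC186.04c and SPAC750.01. SPAC186.05c, which RefSeq lists as a Gdt1-like protein, stood at 25.0, 22.3 and 20.8 CPM in WT, against 49.9, 42.4 and 36.2 CPM (A), 38.7, 34.2 and 38.8 CPM (Q) and 0.123, 0.119 and 0.127 CPM (R). pdc102, a predicted pyruvate decarboxylase gene, stood at 41.6, 25.1 and 30.5 CPM in WT, while the A libraries held 16.7, 23.0 and 20.8, the Q libraries 24.8, 36.3 and 23.5 and the R libraries 0.185, 0.178 and 0.127 CPM. The 3 R libraries of both genes were at or under the floor of 3 counts, A and Q of SPAC186.05c were above WT, and for pdc102 A lay below WT and Q overlapped it. SPAC186.04c and SPAC750.01, a predicted aldo/keto reductase gene, were likewise above WT in A and Q and low in R. SPAC750.01 stood at 134, 142 and 118 CPM in WT, 219, 240.2 and 164 CPM (A), 189.6, 228 and 241 CPM (Q) and 3.69, 7.72 and 3.23 CPM (R). The adjusted p among the mutants was 3.67e-09, 5.57e-07, 5.57e-07 and 1.19e-06. The mean called all 4 lower than WT. In the mean of A and Q alone SPAC186.05c, SPAC186.04c and SPAC750.01 were called higher (log2 fold change 0.81, 1.11 and 0.70) and pdc102 was not called (adjusted p = 0.114). SPAC750.01 has a copy at 92.7% identity, so its counts may hold reads of that copy.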

How the data were processed

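Per the labels' protocols, Trizol was used to extract total RNA, oligo(dT) to enrich mRNA, and PCR to amplify the cDNA. Tools in the submitters' processing notes are RSEM, StringTie, DESeq2, HISAT2, Bowtie2 and fastp, each with neither role nor version. The genome build is not given in the sources used here, nor is the handling of strand. The authors' 3 full tables give, per the file headers, raw counts and FPKM for each gene and library. They also hold the authors' own deposited log2 ratios and p-values of each mutant against WT, which were not used for any value reported. The WT columns of the tables were identical and were counted once. Joined on gene identifier they gave 5160 genes, 24 of them StringTie loci, and 32 genes had no counts anywhere. RefSeq (ASM294v3) matched 5109 identifiers.

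The deposited counts of all 12 libraries were fitted with edgeR 4.0.16 in R 4.3.3 (quasi-likelihood test, 1 coefficient per group, TMM scaling, filterByExpr), which left out 136 genes and kept 5024. The contrast was the mean of the A, Q and R coefficients minus WT, so each mutant weighed the same, and a second test asked whether A, Q and R differed among themselves. P-values were two-sided and Benjamini-Hochberg adjusted over the 5024 genes. Levels are TMM-scaled CPM. Log2 fold changes are fitted values in both tests, and the common biological coefficient of variation was 0.186. The fit was tested on simulated data with known fold changes, in which WT and the mutants had the same spread. That test does not cover the wider spread of the mutant libraries in the real data. The floor of 3 counts covers counting error only, since reads carry no molecular identifiers.

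Genes were named by a rule: the 10 largest changes per direction among genes called, at least 2-fold, at least 5 CPM and with all 9 mutant libraries on 1 side of WT; htb1 and its neighbours; the up to 3 called genes with the lowest p of each list; the 6 most even changes per direction; and the 4 called genes with the lowest p among the mutants. Other genes named from the lists were chosen after their values were seen. The contrast and the 35 lists (680 names, 665 matched) were chosen with earlier results of these data known, and 8 further names were dropped after values were seen because they pointed to other genes. Copies in the genome were sought with BLAST 2.17.0. Alternatives were RLE size factors, no filter, DESeq2 1.42.0, limma 3.58.1 on log2(FPKM + 0.1), limma voom with group weights, a replicate block, leaving out libraries or mutant groups, and the 9 mutant libraries as 1 group. Results that need items withheld here are not reported.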

Additional observations from a re-analysis of the deposited data

Results flagged for a closer look

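Several genes drew attention because their levels differed among the 3 mutants, by edgeR's quasi-likelihood test of that difference with Benjamini-Hochberg adjustment. In all, 174 genes did so. Among them SPAC186.05c (adjusted p = 3.67e-09), pdc102 (5.57e-07), SPAC186.04c (5.57e-07) and SPAC750.01 (1.19e-06) were near 0 or low in the 3 R libraries and well read in the A and Q libraries. htb1, the mutated gene, was above WT in the 6 A and R libraries and below it in the 3 Q libraries (adjusted p = 0.000237). hta1 was below WT in the A and Q libraries and above it in 2 of the 3 R libraries (adjusted p = 0.0338).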

How the results depend on the processing

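The 23 alternatives kept the direction of the 124 called genes named, except as given here, and 74 of them were called in every alternative. In the mean contrast, leaving out 1 library in turn gave between 476 and 1669 called genes, and between 143 and 265 with at least 2-fold change. Between 436 and 1126 were called with all mutant libraries kept outside the range of the WT libraries kept. That condition covers fewer libraries than in the main test, so it is easier to meet. The low ends all came from leaving out a WT library, which leaves WT with 2. Weighting the groups by their spread (limma voom) gave 2572. With 4.52% of genes past 2-fold, most calls rest on small changes. The number of genes that differed among the mutants was the least settled, at 567 with DESeq2, 86 with voom, 1140 without replicate 2 of A, Q and R, and between 39 and 377 over the single libraries left out. The replicate numbers were not taken to pair the mutants with WT. The deviations of same-numbered libraries from their group means correlated between -0.08 and 0.28, with 3 of 9 over 0.1, which cannot show whether they are pairs. Among the mutants 8 of 9 such correlations were over 0.1, up to 0.4, and 1, between A and Q, was -0.18, so the numbers were not taken as pairs there either. Each library of R correlated best with its own number in A and in Q (6 of 6 in both pairs of groups), a hint from the data and not the design. The best match was the own number in 4 of 6 cases for WT and A and 3 of 6 for A and Q. For WT and Q, and for WT and R, it was 2 of 6. With the replicate block 1852 genes were called in the mean contrast and 412 among the mutants. The higher share of calls was 43.1% with limma on FPKM and 52.1% in the count test. Without the A group, the log2 fold change of htb1 was -0.30 and called. Without the R group, those of SPAC186.05c, SPAC186.04c and SPAC750.01 were 0.81, 1.11 and 0.70, and with the 9 mutant libraries as 1 group 0.24, 0.53 and 0.13, not called. The causes were not tested. Of the alternative values for single genes, 2686 kept direction and call, 180 lost the call, 2 gained it and 7 changed direction. Of the alternative counts of list genes called higher or lower, 349 moved and 1261 did not.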

Other observations

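SPBP35G2.17, annotated as dubious, had 0 counts in all WT and A libraries and stood at 9.48 ± 8.72 CPM in Q and 18.2 ± 30.7 CPM in R (mean ± SD, n = 3), and neither the mean contrast nor the test among the mutants called it (edgeR, adjusted p = 0.212 among the mutants).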
